A study of Rattus norvegicus with 8 samples.

Results

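The serpin family, the serine protease inhibitors and their relatives, was followed in rat liver RNA measured on 1-colour Agilent arrays. Members were the non-control probes whose gene name in the scanner files begins with Serpin. They came to 45 probes for 37 genes, of 45598 probes for 35828 genes on the array. The letter after Serpin gave the clade, with 12 genes in clade A, 14 in clade B, 3 in clade E, 2 each in clades F and I, and 1 each in clades C, D, G and H. The family was singled out because Serpinb1a differed between the groups in this contrast, so the values of Serpinb1a are given as a description with no p-value. It was part of the fit over all genes, and counts of members past a threshold or on 1 side of 0 are given without it unless stated. The other members were taken by their name.

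The STL group was 4 male Wistar rats given butyrate-containing structured lipids daily by gavage at 1.65 g/kg body weight. The control group was 4 male Wistar rats given maltodextrin at 3.0 g/kg body weight, a dose of equal energy content. Both groups entered the resistant hepatocyte protocol of chemical hepatocarcinogenesis 2 weeks after dosing began, and livers were collected at week 8, so every control liver had also been through the carcinogenesis protocol. The labels call the controls age-matched and give no age. The labels give 1 rat per array, but control 1 and control 2 were as alike as repeated spots of a single array. The SD between that pair was 1.042 times the SD within an array, while the next closest pair, control 2 and STL 6, had 2.145 times. Control 1 and control 2 were therefore averaged and counted as 1 sample, which left 4 STL and 3 control samples.

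All 8 arrays lay on 1 slide. The share of probes well above background was 54.2% to 62.8%, and the 75th percentile of the signal was 304 to 605. Each value below is a log2 normalised signal, that is log2 of the processed signal minus log2 of that array's 75th percentile, so 0 stands for the 75th percentile. Differences are STL minus control with the standard error (SE) of the limma fit. Of the 37 serpin genes, 24 were tested because at least 4 of 8 arrays had them well above background, and 13 did not reach this. The hepatocyte markers Alb, Ttr, Apoa1, Tf, Cps1, Fgb and Serpina1, which check the label of liver tissue, were all among the genes tested.

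An inhibitory serpin holds out a reactive loop as bait. The protease that cuts it becomes bound covalently and is distorted, so each molecule is spent on 1 protease. Clade A serpins are mostly secreted by hepatocytes into plasma. Clade B serpins mostly stay inside the cell and guard it against its own or incoming proteases. Some members no longer inhibit proteases, among them Serpina6, which carries corticosteroids, and Serpinh1, which folds collagen.

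The following 60-base probes, as given in the scanner files, are those of the 6 genes whose groups did not overlap and of Serpinb9, whose 2 probes moved in opposite directions. The positions are those of the files, in rat build rn4. No annotation of that build was used, so exon, intron or UTR is not given.
Serpinb1a, chr17:37958944-37959003, plus strand: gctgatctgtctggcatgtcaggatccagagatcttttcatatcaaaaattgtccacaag
Serpinb6, chr17:37334213-37334272, plus strand: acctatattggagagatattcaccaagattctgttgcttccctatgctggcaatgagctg
Serpinb8, brighter probe, chr13:13740842-13740877, plus strand: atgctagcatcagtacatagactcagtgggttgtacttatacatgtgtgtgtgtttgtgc
Serpinb8, dimmer probe, chr13:13742562-13742621, plus strand: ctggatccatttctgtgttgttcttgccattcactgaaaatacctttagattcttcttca
Serpinb9, brighter probe, chr17:37778646-37778705, minus strand: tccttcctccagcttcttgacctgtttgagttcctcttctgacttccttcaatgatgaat
Serpinb9, dimmer probe, chr17:37782600-37784834, minus strand: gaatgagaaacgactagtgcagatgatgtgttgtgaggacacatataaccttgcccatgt
Serpina5, chr6:128161177-128161236, plus strand: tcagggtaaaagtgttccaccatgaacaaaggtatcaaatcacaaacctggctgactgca
Serpina11, chr6:128036714-128036773, minus strand: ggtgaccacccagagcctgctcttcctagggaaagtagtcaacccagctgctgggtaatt
Serpina3m, chr6:128198203-128198262, minus strand: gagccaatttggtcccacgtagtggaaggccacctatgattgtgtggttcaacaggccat
None of these 9 probes shared a run of 12 or more bases with the probe of another serpin gene. The longest run that the Serpinb1a probe shared with the probe of any other gene was 13 bases. The files map the dimmer Serpinb9 probe over 2235 bases and the brighter Serpinb8 probe over 36 bases, so the mapped span and the probe length differ there. Whole transcripts were not compared, and signal from a close relative of a serpin gene was not tested.

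Serpinb1a was lower in STL livers. It is a clade B serpin whose human counterpart inhibits the neutrophil proteases elastase, proteinase 3 and cathepsin G. Its log2 normalised signal was 0.09, 1.46, 0.33 and -0.03 in STL 5, 6, 7 and 8, against 2.88 in control 1 and 2, 3.19 in control 3 and 4.21 in control 4. All 4 STL samples lay below all 3 control samples, STL 6 was the highest of the STL samples and control 4 the highest of the controls. The means were 0.46 ± 0.68 in STL (SD, n = 4) and 3.43 ± 0.69 in control livers (SD, n = 3), a difference of -2.96 with an SE of 0.41, or 7.79-fold lower in STL. The gap between STL 6 and the lowest control sample was 1.42, about as wide as the range within the STL samples, 1.49, and within the control samples, 1.32. On a linear scale the signal was 1.07, 2.75, 1.26 and 0.977 times the 75th percentile on the 4 STL arrays, and 7.37, 7.40, 9.11 and 18.5 times on the arrays of control 1 to 4. Of 21691 genes tested, 22 had a more negative difference. A log2 difference of -1 or lower, 2-fold, was seen in 2.35% of all genes tested.

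**Figure D1:**
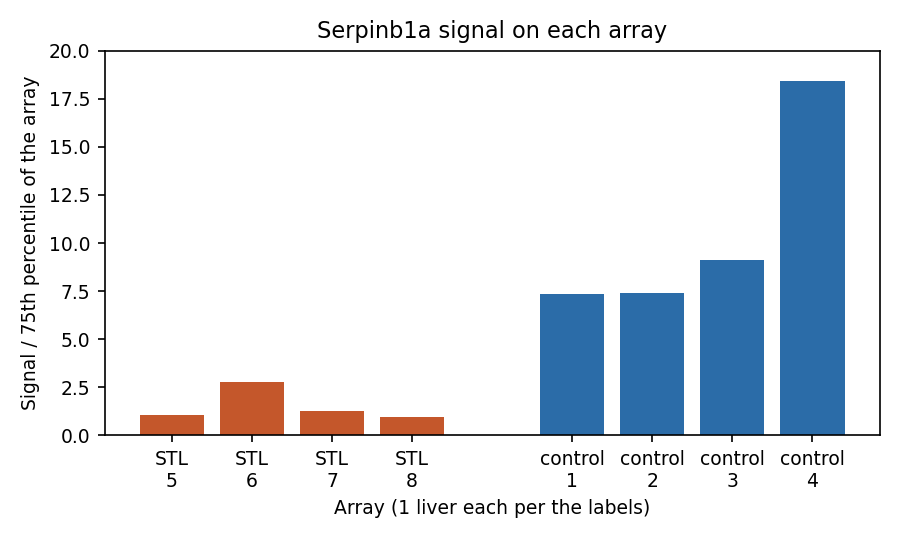
Serpinb1a signal on each of the 8 arrays as a multiple of that array's 75th percentile (linear axis from 0, 1 bar per array, no error bar). The 4 STL arrays lie between 0.977 and 2.75 and the 4 control arrays between 7.37 and 18.5.

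In bulk liver RNA, fewer cells of a type and less RNA per cell cannot be told apart. Markers of other cells are therefore given beside Serpinb1a. Of 10 neutrophil markers, 4 were tested, 3 lower and 1 higher in STL, with a median difference of -0.43 and none past adjustment. Their summed linear signal was 0.563 to 1.38 in STL and 0.892 to 2.21 in control samples, with overlapping groups. The granule genes Mpo, Prtn3 and Ltf were well above background on no array. Cxcr2 was well above background on 2 control arrays and Ngp on 1, and neither on an STL array. The summed signal of the 4 tested neutrophil markers was highest in control 1 and 2, while Serpinb1a was highest in control 4. All 8 markers of preneoplastic lesions were lower in STL, with a median difference of -2.31, and 7 had an unadjusted p under 0.05, as had 7.41% of all genes tested in that direction, but none passed adjustment in limma. Their mean log2 signal was 0.56, 2.87, 0.88 and 0.21 in STL 5, 6, 7 and 8, against 2.85, 3.37 and 4.55 in control 1 and 2, control 3 and control 4. STL 6 was the highest STL sample and control 4 the highest control sample in this list, as for Serpinb1a. The same held for the mean log2 signal of 5 of the 14 lists counted here, the others being the markers of cholangiocytes, stellate cells and mast cells and the collagens. By summed signal the mast cell markers were instead highest in STL 8. The stellate cell and collagen lists share Col1a1 and Col1a2, so they are not separate. Of the 6 cholangiocyte markers, 5 were lower in STL, with a median difference of -1.01 and summed signals of 2.32 to 5.69 in STL and 4.88 to 11.1 in control samples, and none passed adjustment. The part of any of these cells in the Serpinb1a difference was not tested.

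Besides Serpinb1a, 6 clade B genes were tested and none passed an adjusted p under 0.05 in limma. Across the family, none of the 23 tested genes other than Serpinb1a passed, while 5 had an unadjusted p under 0.05, 3 higher and 2 lower in STL. Over all 21691 genes tested, 0.00461% passed adjustment, a single gene, Cish, and 19.0% had an unadjusted p under 0.05, 11.6% higher and 7.41% lower in STL. The same 5 serpin genes were those whose STL and control samples did not overlap, which held for 16.9% of all genes tested, 11.3% higher and 5.63% lower in STL. The share of 5 in 23 is near these backgrounds. With quantile or median scaling of the arrays, or without control 4, 3 of the 23 had an unadjusted p under 0.05, 1 higher and 2 lower. The share over all genes tested fell as well, to 18.4%, 16.5% and 13.3% in that order.

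Serpinb6, whose human counterpart inhibits cathepsin G and trypsin-like proteases, had -0.27, 0.24, -0.27 and -0.63 in STL 5, 6, 7 and 8. It had 0.39 in control 1 and 2, 0.24 in control 3 and 1.30 in control 4. The groups almost touched at STL 6 and control 3, and control 4 was far above the other samples. The difference was -0.88 with an SE of 0.28, 1.84-fold lower in STL, and did not pass adjustment (limma adjusted p = 0.190). Without control 4 it was -0.55.

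Serpinb8, which inhibits furin in human cells, had -2.17, -2.15, -2.20 and -2.35 in STL 5, 6, 7 and 8. It had -1.83, -1.47 and -1.67 in control 1 and 2, control 3 and control 4. The STL samples were close together and all lay below the controls. The difference was -0.56 with an SE of 0.15 (limma adjusted p = 0.177). The dimmer Serpinb8 probe had a difference of -0.93 with an SE of 0.34, but its groups overlapped, with STL 6 at -1.97 above control 1 and 2 at -2.41 (limma adjusted p = 0.220 in the fit of every probe). With normexp background correction the Serpinb8 difference was -0.23.

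**Figure D2:**
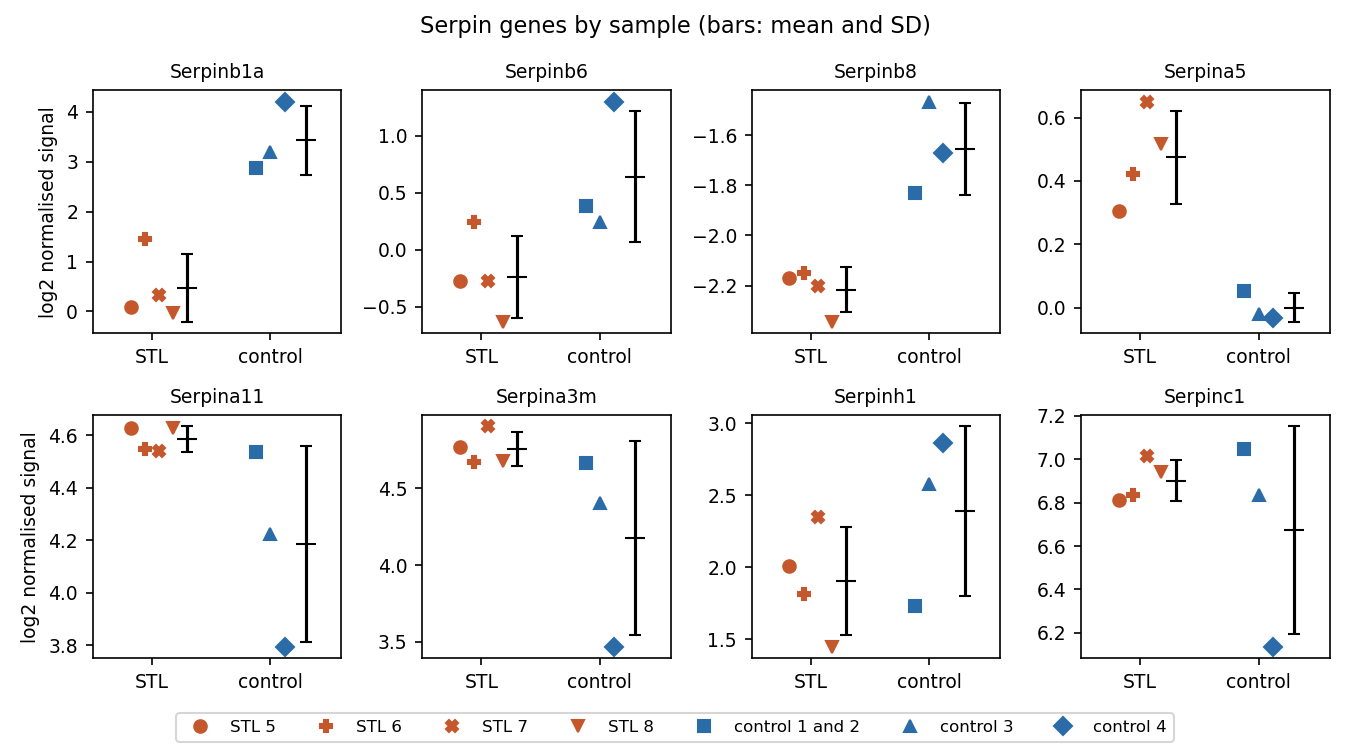
Log2 normalised signal of 8 serpin genes in each sample, 4 STL samples left of 3 control samples, each panel with its own vertical scale. Points are samples and bars the mean and SD. The groups do not overlap for Serpinb1a, Serpinb6, Serpinb8, Serpina5, Serpina11 and Serpina3m, and they overlap for Serpinh1 and Serpinc1.

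Serpinb9, the clade B inhibitor of granzyme B in human lymphocytes, was the gene whose probes disagreed. The brighter probe had 3.00, 3.04, 2.96 and 2.82 in STL 5, 6, 7 and 8, and 2.71, 2.88 and 2.73 in control 1 and 2, control 3 and control 4. Its difference was 0.18 with an SE of 0.10 (limma adjusted p = 0.352). The dimmer probe had -3.07, -2.10, -2.51 and -3.15 in the STL samples and -2.34, -1.86 and -1.59 in the control samples. Its difference was -0.77 with an SE of 0.30 (limma adjusted p = 0.235 in the fit of every probe). In both probes the groups overlapped, so no direction is drawn for Serpinb9, and counts use its brighter probe.

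**Figure D3:**
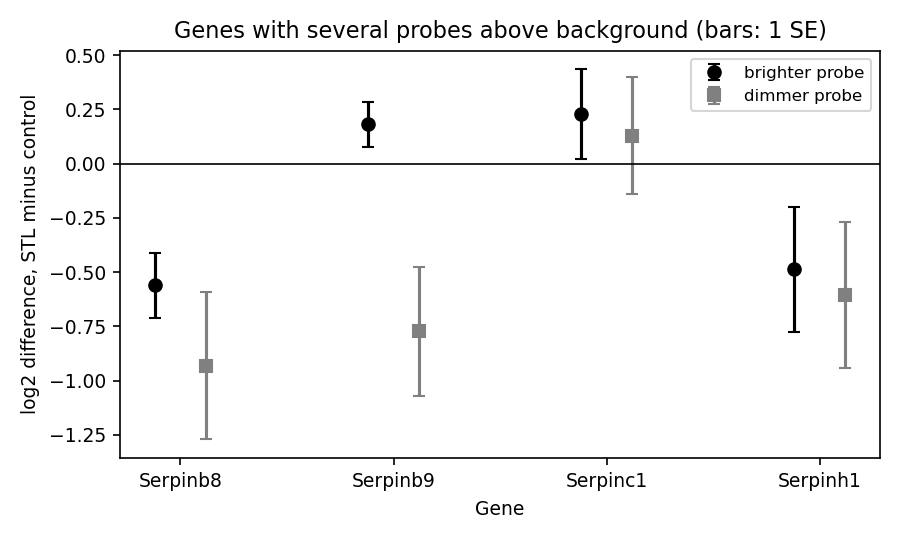
Log2 difference, STL minus control, for each probe of the 4 serpin genes that had several probes above background, with bars of 1 SE. Serpinb9 has 0.18 at its brighter and -0.77 at its dimmer probe, while the probes of Serpinb8, Serpinc1 and Serpinh1 share a sign.

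The remaining tested clade B genes had overlapping groups. Serpinb6b, a relative of Serpinb6, differed by -0.39 (limma adjusted p = 0.350), Serpinb12 by -0.08 (limma adjusted p = 0.839) and Serpinb7 by -0.03 (limma adjusted p = 0.931). The other Serpinb12 probes were well above background on no array, so the Serpinb12 value and its sign rest on a single probe. A second Serpinb7 probe was well above background on 0 STL arrays and 2 control arrays and was not tested. Its measured means were -5.56 in STL and -4.21 in control samples. Control 1 and control 2 were not well above background either, so no fold is given for this probe. The 7 clade B genes not tested were Serpinb2, Serpinb3, Serpinb5, Serpinb9d, Serpinb10, Serpinb11 and Serpinb13. Serpinb2 was well above background on STL 7 only, Serpinb3 on STL 6 and control 1 only, and the other 5 on no array.

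Without Serpinb1a, 5 of the 6 tested clade B genes had a value below 0 for STL minus control, with a median of -0.24, against 9090 of all 21691 genes tested and a median of 0.06. Without control 4 that median of 6 genes was -0.11. Of the 7 clade B genes with Serpinb1a, 4 were highest in control 4 and 3 were lowest in STL 8. Centred on each gene, the median of these 7 genes was -0.23, -0.13, -0.26 and -0.31 in STL 5, 6, 7 and 8, and 0.11, 0.04 and 0.26 in control 1 and 2, control 3 and control 4. The filter on dim probes shapes this count: with all 14 clade B genes kept, Serpinb1a included, the median was 0.07.

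All 9 tested clade A genes had values above 0 for STL minus control, with a median of 0.36, and none passed adjustment in limma. Over all 21691 genes tested, 12601 were above 0 and the median was 0.06. Control 4 was the lowest sample in all 9 clade A genes, and STL 7 was the highest in 6. Without control 4 the clade A median was 0.12, with 5 genes above and 4 below 0. With quantile normalisation, and likewise with array weights, 6 genes were above and 3 below 0. The centred clade A median was 0.08, 0.16, 0.40 and 0.04 in STL 5, 6, 7 and 8, against 0.15, -0.03 and -0.61 in control 1 and 2, control 3 and control 4. The 6 hepatocyte markers other than Serpina1 followed the same order at both ends. Their mean log2 signal was 8.21, 8.20, 8.74 and 8.18 in STL 5, 6, 7 and 8, against 8.30, 8.15 and 7.77 in control 1 and 2, control 3 and control 4. Of these 6 markers, 5 were higher in STL, with a median difference of 0.29. Their part in the clade A values was not tested.

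Serpina5, the protein C inhibitor, was the clade A gene with the smallest p. Its values were 0.30, 0.42, 0.65 and 0.52 in STL 5, 6, 7 and 8, against 0.05, -0.02 and -0.03 in control 1 and 2, control 3 and control 4. All STL samples lay above the controls, which were close together. The difference was 0.47 with an SE of 0.12, or 1.39-fold, and did not pass adjustment (limma adjusted p = 0.172). Without control 4 it was 0.46, so this value did not rest on control 4. Over all alternatives its adjusted p in limma lay between 0.0574 and 0.362.

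Serpina11 had 4.63, 4.55, 4.54 and 4.63 in STL 5, 6, 7 and 8, and 4.54, 4.22 and 3.79 in control 1 and 2, control 3 and control 4. The STL samples were tightly grouped, and control 1 and 2 all but reached them. The difference was 0.40 with an SE of 0.17 (limma adjusted p = 0.244), and 0.21 without control 4. Serpina3m, of the rat group related to antichymotrypsin, had 4.77, 4.67, 4.90 and 4.68 in the STL samples against 4.67, 4.40 and 3.47 in control 1 and 2, control 3 and control 4. Here too control 1 and 2 lay just under the lowest STL sample. The difference was 0.58 with an SE of 0.25 (limma adjusted p = 0.263), and 0.22 without control 4.

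The other 6 tested clade A genes had overlapping groups. Serpina4, counterpart of human kallistatin, differed by 0.60 (limma adjusted p = 0.330), and by 0.14 without control 4. Serpina1, the antitrypsin that inhibits neutrophil elastase in plasma, differed by 0.30 (limma adjusted p = 0.400), and Serpina6, the corticosteroid carrier, by 0.36 (limma adjusted p = 0.573). Serpina3n and Serpina3c differed by 0.24 and 0.23, and Serpina10, a cofactor-dependent inhibitor of coagulation factor Xa, by 0.02, with limma adjusted p-values of 0.580, 0.713 and 0.951. Without control 4, Serpina1 differed by 0.12, Serpina6 by -0.03, Serpina3c by -0.21, Serpina10 by -0.08 and Serpina3n by -0.00017, so 4 of these 6 genes turned negative. Serpina12, Serpina1f and Serpina9 were well above background on no array. The probes of the Serpina3 genes shared no run of 12 bases, yet these genes are close copies, so a share of signal from a relative is uncertain for each of them.

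**Figure D4:**
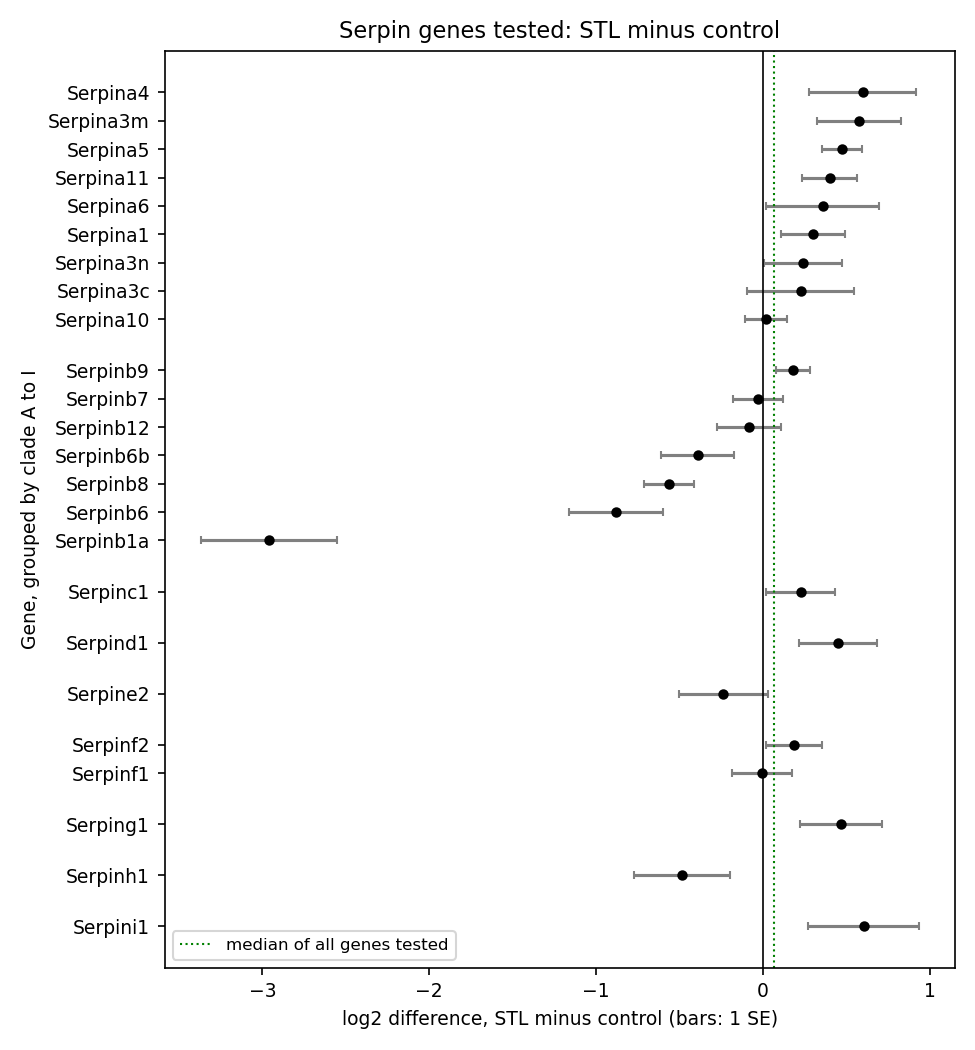
Log2 difference, STL minus control, of the 24 tested serpin genes grouped from clade A at the top to clade I at the bottom, with bars of 1 SE and a dotted line at the median of all genes tested, 0.06. The 9 clade A genes lie between 0.02 and 0.60, and Serpinb1a lies at -2.96.

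The single members of the smaller clades are mostly plasma inhibitors. Serpinc1, antithrombin, had 6.81, 6.84, 7.02 and 6.94 in STL 5, 6, 7 and 8, against 7.05, 6.84 and 6.13 in control 1 and 2, control 3 and control 4. Control 4 lay well below the other samples, and the difference of 0.23 (limma adjusted p = 0.557) was -0.04 without it. Serpind1, the heparin cofactor that inhibits thrombin, had 5.40, 5.39, 5.93 and 5.79 in the STL samples against 5.43, 5.48 and 4.62 in the control samples in the same order. Its difference was 0.45 (limma adjusted p = 0.321), and 0.17 without control 4. Serping1, the inhibitor of the first complement proteases, had 8.00, 8.13, 8.89 and 8.32 in the STL samples against 8.22, 7.87 and 7.50 in the control samples. STL 7 was the highest sample, the groups overlapped, and the difference was 0.47 (limma adjusted p = 0.327). It was 0.28 without STL 7, 0.29 without control 4 and 0.21 with quantile normalisation.

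Clade F holds the plasmin inhibitor Serpinf2 and Serpinf1, the secreted factor PEDF, which inhibits no protease. Serpinf2 had 5.36, 5.50, 5.01 and 5.09 in the STL samples against 5.12, 5.27 and 4.77 in the control samples, a difference of 0.19 (limma adjusted p = 0.551). Without control 4 it was 0.04, without STL 6 0.10, and with quantile normalisation 0.05. Serpinf1 had 6.77, 6.70, 6.99 and 6.93 in the STL samples against 7.04, 7.08 and 6.43 in the control samples. Its mean difference was -0.0051 (limma adjusted p = 0.991), and its sign changed with the samples included. Both genes had overlapping groups.

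Serpine2, which inhibits thrombin and plasminogen activators at cell surfaces, had -0.59, -0.07, -0.78 and -0.42 in the STL samples against -0.80, -0.19 and 0.31 in the control samples. The difference was -0.24 (limma adjusted p = 0.638) and 0.03 without control 4. Serpine3 was well above background on no array. Serpini1, neuroserpin, was well above background on 5 of 8 arrays, with -4.60, -3.67, -3.80 and -4.10 in the STL samples against -4.67, -4.17 and -5.10 in the control samples. Its difference was 0.60 (limma adjusted p = 0.341) with overlapping groups, and Serpini2 was well above background on no array.

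Serpinh1, the collagen chaperone of the endoplasmic reticulum, had 2.01, 1.82, 2.35 and 1.45 in STL 5, 6, 7 and 8, against 1.73, 2.58 and 2.86 in control 1 and 2, control 3 and control 4. Control 1 and 2 lay among the STL samples, while control 3 and control 4 lay above them. The difference was -0.49 with an SE of 0.29 (limma adjusted p = 0.372), and -0.25 without control 4. The second Serpinh1 probe gave -0.60, and both probes were the mean of 10 spots per array. All 6 tested collagen genes on a list of its clients were lower in STL, with a median difference of -0.67, and all 6 had an unadjusted p under 0.05, which was lower in STL for 7.41% of all genes tested. None passed adjustment. Col1a2 had 3.08, 3.65, 3.69 and 3.44 in the STL samples against 3.91, 4.22 and 4.94 in the control samples, a difference of -0.90 (limma adjusted p = 0.178). Col3a1 and Col5a1, which form fibrils with it, differed by -0.75 and -0.59. The summed linear signal of the 8 stellate cell markers was 19.4 to 27.4 in STL and 28.2 to 61.6 in control samples. That sum includes Col1a1 and Col1a2, and the other 6 markers summed to 9.47 to 11.9 in STL and 10.2 to 12.7 in control samples, which overlap. Of these 6, 4 were lower and 2 higher in STL, with a median difference of -0.16. Dcn, Pdgfrb and Des had differences of -0.58, -0.50 and -0.31 and Lrat of -0.00079. Reln and Acta2 had 0.12 and 0.05. The part of stellate cells in the Serpinh1 and collagen values was not tested.

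**Figure D5:**
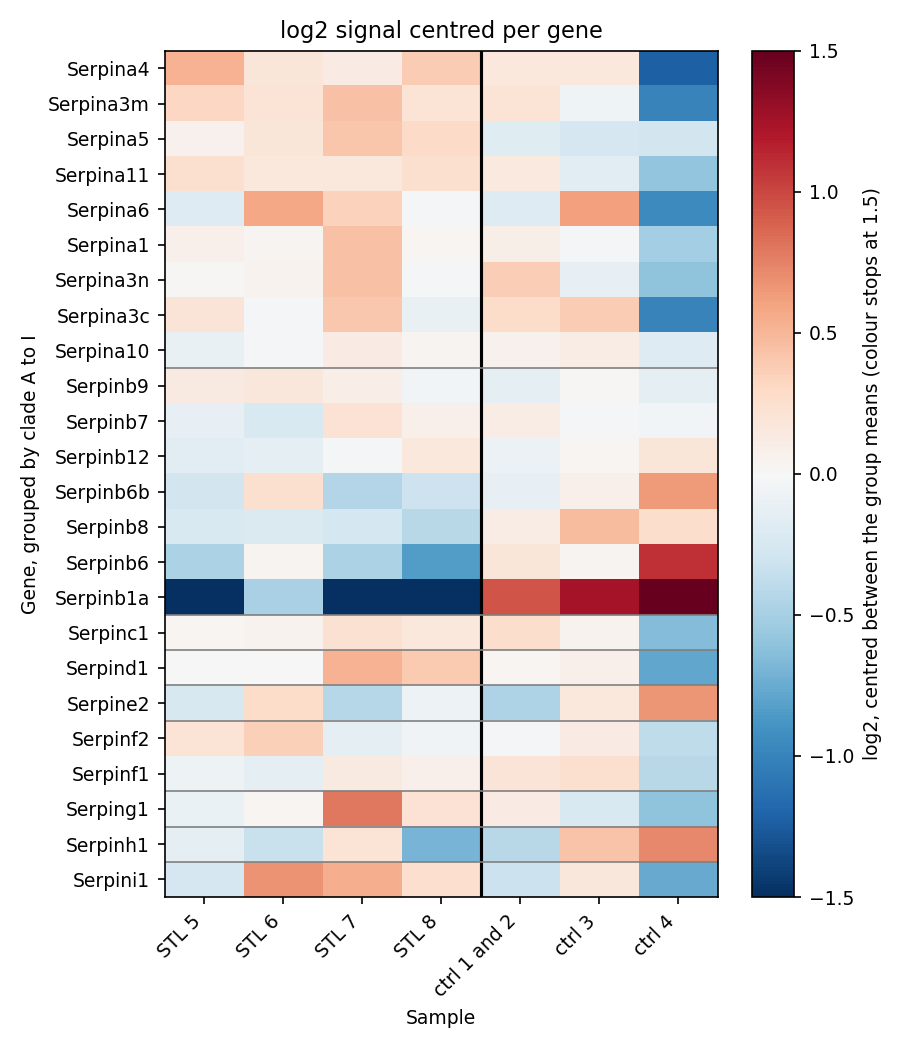
Log2 signal of the 24 tested serpin genes in the 7 samples, each gene centred midway between its group means, STL samples left of control samples, colour stopping at 1.5. Control 4 is the lowest sample in 15 of 24 genes, including all 9 of clade A, and the highest in 4 of 7 genes of clade B.

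The proteases that serpins inhibit, and the partners they bind, were counted from lists, and no member of any list passed adjustment in limma. Of 11 proteases of coagulation and fibrinolysis, 9 were higher in STL with a median of 0.30, against 12601 of all 21691 genes tested. Their mean log2 signal was 4.78 to 4.86 in STL samples. It was 4.78, 4.65 and 4.35 in control 1 and 2, control 3 and control 4, so control 4 was again the lowest. Klkb1, plasma kallikrein, alone had an unadjusted p under 0.05, as had 11.6% of all genes tested in that direction, with a difference of 0.77 (limma adjusted p = 0.205). Of 4 complement proteases, 2 were higher, and Masp2 of the lectin pathway had a difference of 0.43 (limma adjusted p = 0.194).

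Among leukocyte serine proteases, 14 of 15 listed genes were on the array and 8 were tested, 6 of them lower in STL with a median of -0.46. The targets attributed to human SERPINB1 did not pass the filter: Prtn3 and Ctsg were well above background on no array, and Elane on 1 STL and 1 control array. Mcpt1, a mast cell chymase, had -4.47, -3.19, -3.89 and -4.32 in the STL samples against -2.75, -1.49 and -1.07 in the control samples. Its groups did not overlap, which held for 5.63% of all genes tested in that direction. The difference was -2.20 with an SE of 0.44 (limma adjusted p = 0.164). The Mcpt1 signal was dim in the STL samples, so the size of this difference is uncertain. Mcpt10 and Mcpt9, of the same protease family, differed by -0.62 and -0.52. Of the 5 tested mast cell markers, 3 were lower and 2 higher in STL.

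Lysosomal cysteine proteases, which some clade A and B serpins inhibit, were divided, with 4 of 7 higher in STL. Ctsz, cathepsin Z, had 0.59, 0.94, 0.65 and 0.59 in the STL samples against 1.11, 1.20 and 1.58 in the control samples. Its groups did not overlap, which held for 5.63% of all genes tested in that direction, and the difference was -0.60 (limma adjusted p = 0.172). Of 8 cofactors, receptors and partners, 5 were higher in STL. Sdc1, a heparan sulphate proteoglycan of the cell surface, differed by 0.64 (limma adjusted p = 0.181), with 5.79, 6.10, 6.60 and 6.47 in the STL samples against 5.57, 5.74 and 5.48 in the control samples. Vldlr, a receptor for complexes of serpins and proteases, differed by -1.19 (limma adjusted p = 0.187). Its signal was dim, at -5.80, -4.38, -5.21 and -4.50 in the STL samples against -3.84, -3.77 and -3.75 in the control samples. The size of the Vldlr difference is therefore uncertain. Lrp2, of the same receptor family, differed by 0.51 (limma adjusted p = 0.240).

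By position in rn4, all 12 clade A genes had probes within 582 kb of chromosome 6, and the 9 tested there are those described above, 9 above 0 with all samples and 5 without control 4. Serpinb1a, Serpinb6, Serpinb6b, Serpinb9 and Serpinb9d had probes within 625 kb of chromosome 17, where, of the 3 tested genes other than Serpinb1a, Serpinb6 and Serpinb6b were below 0 and Serpinb9, by its brighter probe, above. The other 9 clade B genes lay on chromosome 13, where the 3 tested, Serpinb7, Serpinb8 and Serpinb12, were all below 0, Serpinb7 and Serpinb12 by less than 1 SE. None of these counts was tested, since neighbouring genes of a clade share sequence and samples.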

How the data were processed

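Liver total RNA was made into Cy3-labelled cRNA for 1-colour Agilent arrays, per the labels' protocols. The deposited scanner files give spot intensity made with Agilent Feature Extraction, version 11.5.1.1 per the file headers and 10.7 per the submitters' processing notes. The authors' table of the whole series also holds intensity on a linear scale; in 2 of its 8 columns the values were those of the array named and in 8 of 8 those of an array of the named group, so the identity of single rats inside a group is unsettled.

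Spots flagged as non-uniform or population outliers were left out, spots of a probe were averaged, and log2 of the deposited intensity was scaled to the 75th percentile of each array. The brightest probe stood for a gene. Probes were named through RefSeq tables where these matched, and 16260 kept the name of the files; serpins kept the files' name throughout. A further 8 probes, named otherwise in the files, carry a Serpin symbol in RefSeq and were not members. The 21691 genes that at least 4 of 8 arrays had well above background entered a two-sided limma fit (version 3.58.1, R 4.3.3, lmFit and eBayes with trend) adjusted by Benjamini-Hochberg, with calls at 0.05. It was also run on simulated data with known differences. Files were read with Python 3.11.15. The pair limit of 1.5 for averaging arrays was set with the ratios known. Nothing but the labels says that replicates are separate animals, and the number of arrays limits precision.

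The members, gene lists, markers and tests were chosen with earlier results of these data known. Values in every sample were given for Serpinb1a, for other members with unadjusted p under 0.05 and for the 2 smallest p-values per clade, with Serpinb9 added after its probes were seen to disagree. The values of 1 untested member are not reported here. At most 3 genes per list were named by smallest p, and some of these also in every sample. The 6 stellate cell markers other than collagens were all given. Markers of macrophages (2 of 9 tested higher in STL, median -0.12) and endothelium (3 of 5, median 0.17) were counted too, none past adjustment. The 18 alternatives changed the array averaging, scaling, background, filter, probe rule, weights, slide column, source table and each sample left out.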

Additional observations from a re-analysis of the deposited data

Results flagged for a closer look

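In the 4 STL samples, Serpina1 stood out in STL 7, at 9.48 with the nearest sample at 9.12, a gap of 0.886 of the group's range and past Dixon's critical value for 4 samples. Serpina3n also stood out in STL 7, at 8.99 with the nearest at 8.61, a gap of 0.834 of the range. Chance passes this value in about 1 of 20 groups, and 24 genes were examined. STL 7 also had the highest summed signal of the 6 hepatocyte markers other than Serpina1, 4169 times the 75th percentile, and the lowest 75th percentile, 304. The part of either in these values was not tested.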

How the results depend on the processing

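No serpin gene passed an adjusted p under 0.05 in the limma fit used above, in which control 1 and 2 were averaged. Serpinb1a alone passed, giving a count of 1, with each of the 8 arrays as a sample, with array weights, without control 1 and 2 and without STL 6, so the count ranged from 0 to 1 when samples were left out. Control 1 and 2 were averaged in the fits with array weights and without STL 6 too. The choice of Serpinb1a used this contrast, so nothing is read from these counts. Over all genes, 1 passed, against 21 with 8 arrays, 76 with array weights, 214 without control 1 and 2, 46 without STL 6 and 3 without control 3. The cause was not tested. Serpinb1a included, the count of 6 serpin genes with unadjusted p under 0.05 ranged from 4 to 11 when samples were left out, with 11 without control 1 and 2. Each count was out of 24 serpin genes tested. The share over all genes tested moved too, from 19.0% with all samples to between 12.7% (without STL 8) and 22.9% (without control 1 and 2). The Serpinb1a difference ranged from -3.29 to -2.57 over all 18 alternatives. Its groups did not overlap, so leaving out a sample could not have reversed its direction. Reversed were the clade B median with no filter on dim probes (0.0734) and Serpinf1 in the authors' table (0.0311) and without control 1 and 2 (0.0877). Leaving out 1 other sample moved Serpinc1 between -0.0418 (without control 4) and 0.309, Serpine2 between -0.369 and 0.0326 (without control 4) and Serpinf1 between -0.214 and 0.111, above 0 without control 3, STL 5 or STL 6. No paired analysis was possible because the groups share no replicate numbers; the slide column as a block gave 0 serpin genes past adjustment. Leaving Serpinb1a out of the clade B median, and 2 collagens out of the stellate markers, was chosen after seeing the data. Dim probes limit Serpinb7, Serpinb12, Serpini1, Vldlr, Mcpt1 and the 13 genes not tested.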

Other observations

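Of the 7 Serpin symbols that RefSeq gives to probes named otherwise in the files, 2 were tested. Serpina1fl2 differed by 0.27 and Serpina16 by -0.97 between STL and control livers, and neither was counted as a member.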
